A study of Mus musculus with 6 samples.

Results

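The microRNAs miR-221 and miR-222 were measured in mouse lung by 1 mouse probe set each, mmu-miR-221_st and mmu-miR-222_st, on arrays that carry 7625 probe sets. These 2 are among the 609 mouse probe sets and among the 197 of these that passed the detection filter and entered the test. They were chosen by name. The arrays compared 2 mice carrying a CC10-rtTA-IL13 transgene (TG) with 4 wildtype mice (WT), 1 array per mouse. All were C57BL/6 animals aged 6 to 10 weeks that drank 2 mg/mL doxycycline for 7 days before RNA was taken from the upper lobe of the left lung. The CC10 promoter drives a doxycycline-dependent transactivator in airway club cells, which switches on interleukin 13, a cytokine of allergic inflammation. Doxycycline was given to both groups, and no group had the transactivator without interleukin 13, so these cannot be told apart in TG. No interleukin 13 transcript is measured on these arrays, so the genotypes were not checked from the values.

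miR-221 and miR-222 are encoded side by side and are made from a common primary transcript. Because both carry the same seed, the stretch near the 5′ end that pairs with messenger RNAs, they share many targets. Among these are the cell cycle inhibitor p27 (Cdkn1b) and the stem cell factor receptor Kit. The pair is known from work on vascular cells, where it acts in opposite ways on growth of smooth muscle and of endothelium, and it is induced when mast cells are activated. No messenger RNA was measured here, so none of the targets could be followed.

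The mature sequences below are shown because the seed, in capitals (bases 2 to 8), is what makes the 2 miRNAs a family. They are from RefSeq on GRCm38.p6, written 5′ to 3′. RefSeq calls the arms 3p, while the array uses older names without an arm, under which miR-221 and miR-222 stand for the 3p strand.
mmu-miR-221-3p: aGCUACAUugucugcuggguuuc
mmu-miR-222-3p: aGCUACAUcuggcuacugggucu
mmu-miR-1928: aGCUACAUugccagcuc
The first lies at chrX:19146307-19146329 on the minus strand and the second at chrX:19146901-19146923 on the same strand. Both are 23 bases long. They match at the first 8 bases without a break and at 11 of 23 positions when laid side by side without gaps. After the seed, their longest shared run is CUGGGU (6 bases), which begins at base 15 of miR-221 and at base 16 of miR-222. Of 1738 mature mouse miRNAs in the RefSeq table, 3 have the seed GCUACAU, the third being miR-1928 (chr1:74206562-74206578, minus strand), which was not analysed here. A messenger RNA site that pairs with this seed reads AUGUAGC.

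The hairpins show where each mature strand, in capitals, is cut out. Only 504 bases separate them on the chromosome.
Mir222 hairpin: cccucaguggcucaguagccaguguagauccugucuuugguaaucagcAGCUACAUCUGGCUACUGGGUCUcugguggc
Mir221 hairpin: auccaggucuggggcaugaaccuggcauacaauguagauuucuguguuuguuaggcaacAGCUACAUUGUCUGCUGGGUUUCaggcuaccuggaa
Mir222 spans chrX:19146893-19146971 (79 bases) and Mir221 chrX:19146294-19146388 (95 bases), both on the minus strand, so Mir222 comes first in the direction of transcription.

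Before the members, 3 properties of the arrays bear on every value. Values are log2 (the base is inferred), and the detection limit of an array was the 95th percentile of its probe sets for plant miRNAs, which was 4.22 to 4.25 on TG arrays and 4.27 to 4.33 on WT arrays. The TG arrays detected 199 to 201 mouse probe sets and the WT arrays 132 to 172. The brightest probe set reached 13.19 to 13.36 on TG arrays, 13.23 and 13.13 on WT replicates 2 and 3, and only 11.50 and 11.42 on WT replicates 1 and 4. Over the 197 tested probe sets the median difference (TG minus WT) was 0.21, and centring each array on its tested median lowered all differences by 0.44. The arrays are bulk lung RNA, in which fewer cells of a type and less RNA per cell cannot be told apart.

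miR-221 was higher in both TG mice than in any WT mouse, by 1.65-fold on average, but did not pass the test across all mouse probe sets. Its values were 7.71 and 7.71 in TG and 6.72, 7.17, 7.27 and 6.79 in WT replicates 1 to 4. The TG arrays were nearly equal, the groups did not overlap, and the nearest arrays of the 2 groups were 0.44 apart. The TG mean was 7.71 ± 0.0008 (SD, n = 2) and the WT mean 6.99 ± 0.27 (SD, n = 4). The difference of 0.72 ± 0.25 (SE) had an adjusted p of 0.160 by limma with Benjamini-Hochberg adjustment (unadjusted p = 0.0211). The exact two-sided permutation test over 15 splits gave p = 0.0667, the smallest p that these 6 arrays allow. For comparison, 6 of the 197 probe sets passed the adjusted threshold of 0.05 as higher in TG (3.05%) and none as lower, while 34 (17.3%) were higher and 5 (2.54%) lower at an unadjusted p under 0.05. That count of 6 became 0 to 27 when single arrays were left out. In 58 of the 197 (29.4%) both TG values exceeded every WT value, so this separation is common here. The filter also admits probe sets detected on the 2 TG arrays alone, which can raise this share and those given below for other species. Among probe sets detected on all 6 arrays, as miR-221 was, the share was not counted.

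For miR-222 the mouse probe set gave a difference of 1.23-fold that was within the spread of the WT arrays. It read 7.41 and 7.47 in TG and 6.63, 7.28, 7.30 and 7.37 in WT replicates 1 to 4. Both TG values were again above every WT value, but the gap was only 0.041, and WT replicate 1 was far below the other 3 WT arrays. The TG mean was 7.44 ± 0.045 (SD, n = 2) and the WT mean 7.14 ± 0.35 (SD, n = 4). The difference was 0.30 ± 0.28 (SE), with an adjusted p of 0.626 by limma and p = 0.333 by the exact two-sided permutation test. Without WT replicate 1 it was 0.12. It turned to -0.14 when the arrays were centred on their tested median, so the mouse probe set gave miR-222 no settled direction. This turn was not particular to miR-222, because the centring turned 66 of the 197 tested probe sets from positive to negative. After it, the median difference of all 197 was -0.23. The same centring left miR-221 at 0.28 ± 0.27 (SE), with an adjusted p of 0.537 by limma.

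Both members were well above background on all 6 arrays. miR-221 exceeded the detection limit by 3.46 to 3.49 in TG and 2.42 to 2.98 in WT, and miR-222 by 3.19 to 3.23 in TG and 2.32 to 3.04 in WT. Their differences are thus not bounded by the limit of detection. Against the overall median difference, miR-221 stood 0.51 higher and miR-222 0.09 higher. Of the 197 tested probe sets, 41 had a larger positive difference than miR-221 and 83 a larger one than miR-222.

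The passenger strands were not detected. They were read from human probe sets named miR-221-star and miR-222-star, which stand for the 5p arms of the hairpins. miR-221-star ran from 3.85 to 4.05 and miR-222-star from 3.80 to 4.04 over all arrays of both groups, and each was detected on 0 of 6. These probe sets were designed on human sequence, and how well they bind the mouse strands is not known. The mouse 5p strand of Mir221, shown with its seed in capitals because its seed differs from that of the 3p strand, lies at chrX:19146344-19146369 on the minus strand.
mmu-miR-221-5p: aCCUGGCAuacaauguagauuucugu

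Probe sets of the same names in other mammals gave a second reading of the same RNA samples. They add no animals, and no probe sequences were used here, so which of them bind the mouse strand fully is not known. For miR-221, 9 such probe sets were present, and all 9 were higher in TG, and in each both TG values exceeded every WT value. Their differences ran from 0.44 (orangutan) to 1.04 (gorilla), with a median of 0.59. For miR-222, 5 were present, and all 5 had positive differences, from 0.56 (rat) to 0.92 (cattle), with a median of 0.73. With centring on the tested median these medians were 0.15 and 0.29. The groups were apart in this way in 3 of the 5, while the human and rat probe sets overlapped. Among all 1065 detected probe sets of other mammals the median difference was 0.11, 635 were positive (59.6%), and in 275 (25.8%) both TG values exceeded every WT value. In 1 test over all 1666 animal probe sets, where 14 passed as higher in TG (0.84%), 0 of these 14 mammalian probe sets for the pair passed, with adjusted p of 0.110 to 0.366 for miR-221 and 0.165 to 0.492 for miR-222 by limma. At an unadjusted p under 0.05 by limma there were 6 of the 9 for miR-221 and 1 of the 5 for miR-222, all higher in TG, where 252 of all 1666 (15.1%) were higher at that level.

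**Figure D1:**
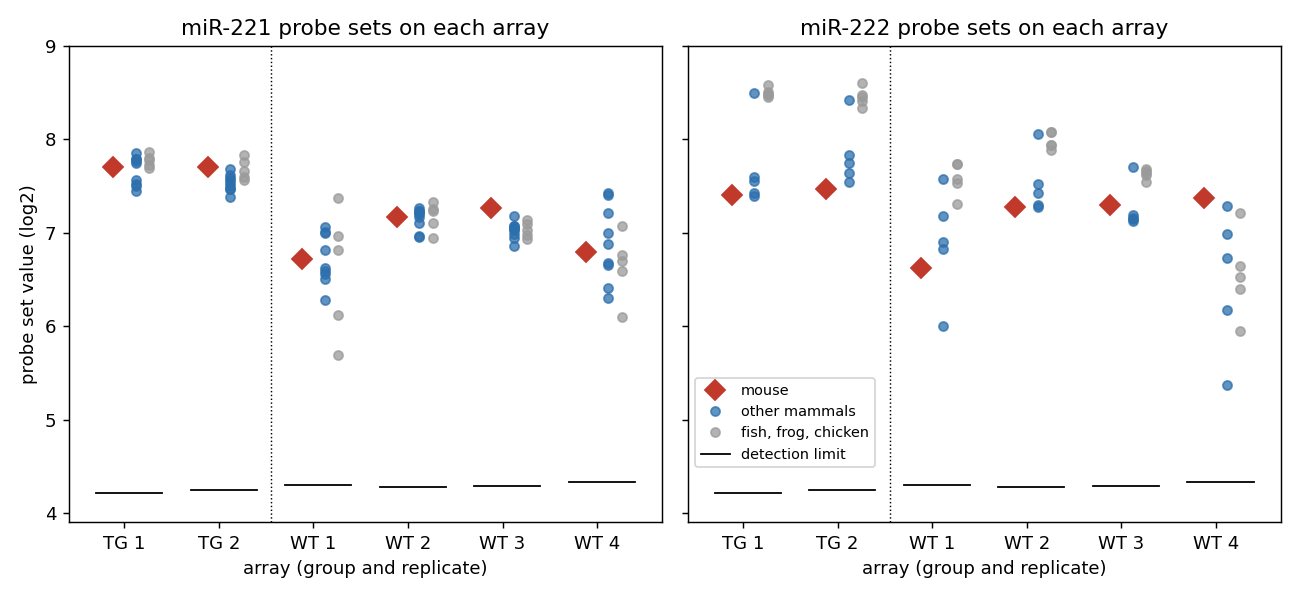
Values (log2) of every probe set named miR-221 (left) and miR-222 (right) on each array, TG replicates first and WT replicates after the dotted line. Red diamonds are the mouse probe set, blue points other mammals, grey points fish, frog and chicken, and black bars the detection limit. The mouse probe set of miR-221 reads 7.71 on both TG arrays and 6.72 to 7.27 in WT. The mouse probe set of miR-222 reads 7.41 and 7.47 in TG and has its highest WT value, 7.37, on WT replicate 4, where 9 of the 10 other miR-222 probe sets have their lowest.

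The mouse miR-222 value on WT replicate 4 stood against the other probe sets of the name. In the mouse probe set this array was the highest of the 4 WT arrays, 0.30 above the mean of the other WT arrays. Of the 5 other mammals, 4 had their lowest WT value there, and the rat probe set, lowest on WT replicate 1, was 0.094 above its mean of the others. The cattle probe set was furthest from its other WT values there, with 7.59 and 7.75 in TG and 7.18, 7.30, 7.15 and 5.37 in WT replicates 1 to 4. The human probe set had 7.39 and 7.83 in TG and 6.83, 7.43, 7.19 and 6.73 in WT, so its first TG value lay just below WT replicate 2. The rat probe set had 7.42 and 7.54 in TG and 6.01, 7.52, 7.16 and 6.99 in WT, which overlap in the same way. WT replicate 2 was the highest WT array in all 5 mammals.

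Probe sets for 5 non-mammals, zebrafish, fugu, tetraodon, frog and chicken, were added after their values had been seen. For miR-221 all 5 had positive differences (0.72 to 1.18), and in each both TG values exceeded every WT value. For miR-222 the same held, with differences of 0.95 to 1.21. Over all 404 detected probe sets of non-mammal animals, 78 (19.3%) were apart in this way. WT replicate 4 was the lowest WT array for all 5 miR-222 probe sets, and it lay 0.55 to 1.75 below the mean of the other WT arrays. The opossum probe set named miR-222a, which lies outside the rule because of its name, had 8.45 and 8.49 in TG and 7.63, 8.03, 7.57 and 7.39 in WT, a difference of 0.82 ± 0.24 (SE).

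**Figure D2:**
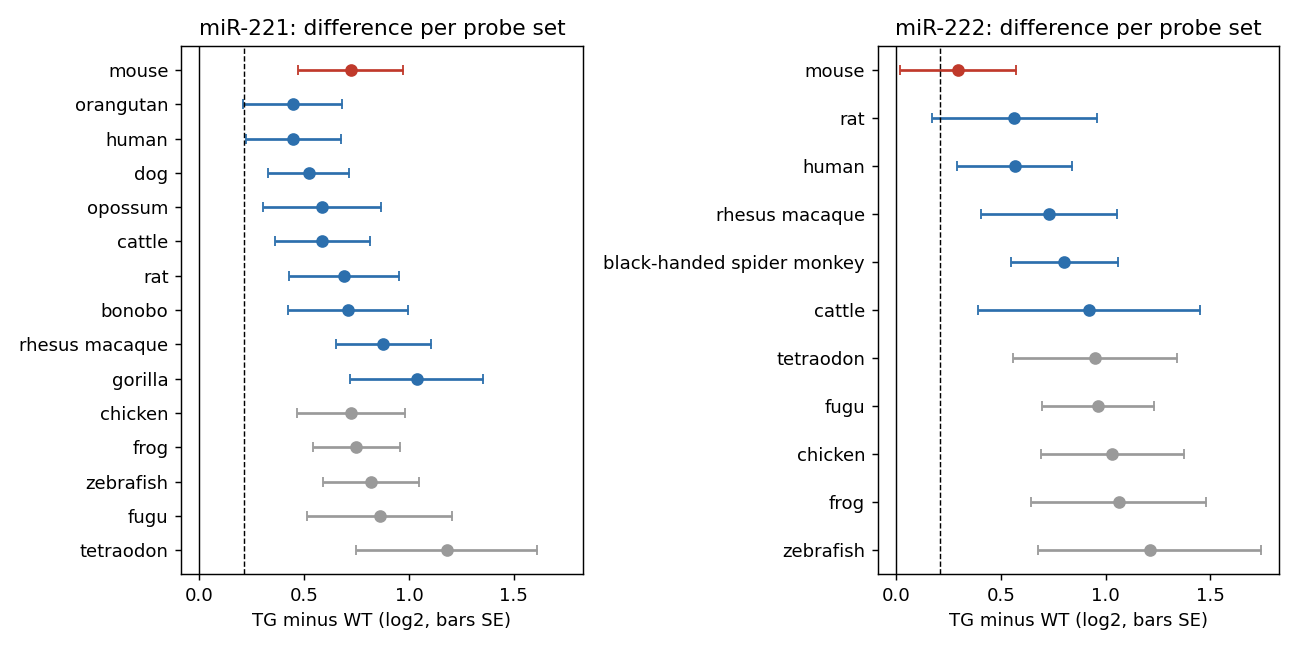
TG minus WT difference (log2, bars are limma's SE, n = 2 TG and 4 WT arrays) for each probe set named miR-221 (left) and miR-222 (right). Red is mouse, blue other mammals, grey fish, frog and chicken, the dashed line is the median of all tested mouse probe sets (0.21) and the solid line is 0. All points lie above 0, and the mouse probe set has the smallest difference of the miR-222 panel at 0.30, which turns to -0.14 with centring on the tested median.

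Averaging the mouse probe set with those of the other mammals brought the 2 miRNAs to closely similar differences. The average of 10 probe sets for miR-221 was 7.67 and 7.55 in TG and 6.71, 7.15, 7.05 and 6.87 in WT replicates 1 to 4. The average of 6 for miR-222 was 7.64 and 7.78 in TG and 6.85, 7.48, 7.27 and 6.65 in WT. In both, the groups did not overlap, and WT replicates 1 and 4 were the 2 lowest arrays. How many of the 197 averaged miRNAs had both TG values above every WT value was not counted. For single mouse probe sets the share was 29.4%. The averaged differences were 0.66 ± 0.17 (SE) for miR-221 and 0.65 ± 0.26 for miR-222, 1.58-fold and 1.57-fold. The median of all 197 averaged miRNAs was 0.20. With limma and Benjamini-Hochberg adjustment the adjusted p was 0.0679 and 0.185, so neither passed. Exact two-sided permutation gave p = 0.0667 and 0.133. The miR-222 average takes in low values of other mammals on WT replicate 4, among them 5.37 in cattle. Without that array the median difference of the other mammals' miR-222 probe sets was 0.50, against 0.73 with all arrays. For miR-221 it was 0.61 without that array and 0.59 with all.

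Whether the 2 miRNAs moved apart was tested on the difference between them within each array. In the mouse probe sets, miR-222 minus miR-221 was -0.30 and -0.24 in TG and -0.09, 0.11, 0.03 and 0.58 in WT replicates 1 to 4. Both TG values lay below all WT values, and WT replicate 4 was the highest. The group difference was -0.42, with p = 0.200 by the exact two-sided permutation test. With the averaged probe sets the same quantity was -0.01 (p = 1, exact two-sided permutation), with -0.02 and 0.22 in TG and 0.14, 0.32, 0.22 and -0.22 in WT. Of 4 other mammals with both probe sets, cattle and human had positive differences (0.33 and 0.12) and macaque and rat negative ones (-0.15 and -0.13), and the groups overlapped in all 4. The groups also overlapped in the 5 non-mammals, where the difference ran from -0.23 to 0.39.

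**Figure D3:**
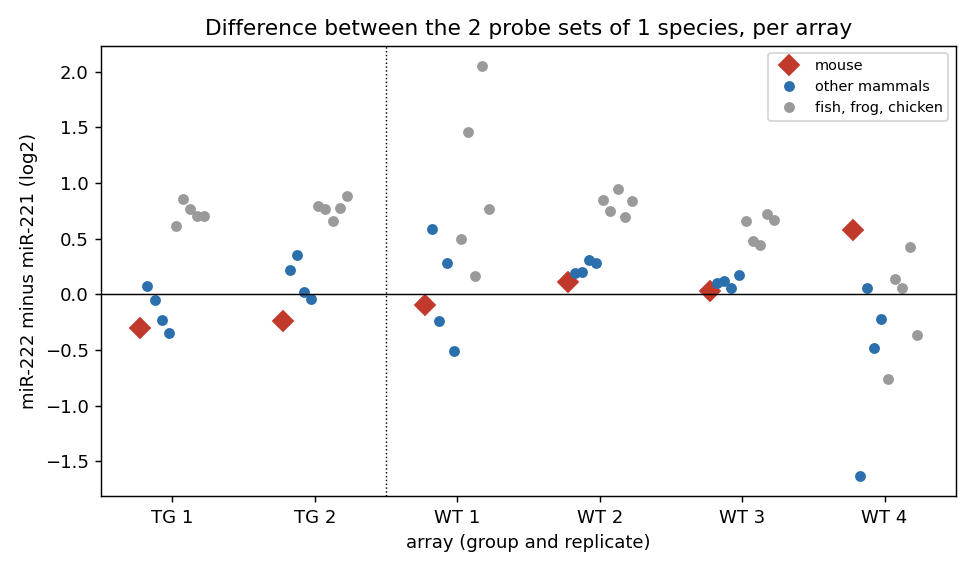
miR-222 minus miR-221 (log2) on each array, from the 2 probe sets of 1 species, TG replicates left of the dotted line. Red diamonds are mouse, blue points cattle, human, macaque and rat, and grey points zebrafish, fugu, chicken, tetraodon and frog. The mouse values are -0.30 and -0.24 in TG and reach 0.58 on WT replicate 4, where the cattle value is -1.63. Each species has its own probe sets, so only changes of 1 species across arrays can be read.

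Other miRNAs with the most similar pattern were taken by Pearson correlation over the 6 arrays, as a description. At r above 0.9 there were 17 of 196 for miR-221 and 3 for miR-222. The 3 named for miR-221 are thus not alone in their likeness. For miR-221 the 3 closest of 196 were miR-199a-5p (r = 0.97), a miRNA of mesenchymal cells, miR-140-star (r = 0.96), the partner strand of a miRNA best known from cartilage, and miR-106b-star (r = 0.96), from a cluster inside the replication gene Mcm7. miR-199a-5p had 5.57 and 5.50 in TG and 3.81, 4.38, 4.89 and 4.28 in WT replicates 1 to 4, the first and last of which were below the detection limit. miR-106b-star had 5.57 and 5.66 in TG and 4.13, 5.21, 4.79 and 4.21 in WT, the first and last again below the limit. Both had low values on WT replicates 1 and 4, as miR-221 did. So did miR-140-star, with 7.25 and 7.31 there against 7.66 and 7.70 on WT replicates 2 and 3. The differences were 1.20 ± 0.31 (SE) for miR-199a-5p, 1.03 ± 0.34 for miR-106b-star and 0.36 ± 0.24 for miR-140-star. None passed over all probe sets (adjusted p of 0.0812, 0.157 and 0.427 by limma).

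For miR-222 the 3 closest were miR-378 (r = 0.98), encoded in the metabolic coactivator gene Ppargc1b, miR-34c (r = 0.92), which is made in multiciliated cells, and miR-497 (r = 0.91), a neighbour of miR-195. All 3 shared the low value on WT replicate 1. miR-378 had 7.60 and 7.37 in TG and 4.31, 7.04, 6.54 and 7.17 in WT, and miR-497 had 5.74 and 5.65 in TG and 3.94, 6.01, 5.90 and 6.18 in WT. miR-34c had 7.02 and 6.82 in TG and 5.99, 6.83, 6.97 and 7.22 in WT. Without that array the correlation was 0.73 for miR-378, -0.01 for miR-34c and -0.62 for miR-497, so the likeness of miR-34c and miR-497 rests on it. For the 3 miRNAs closest to miR-221 it was 0.93 to 0.96 without the same array. miR-221 and miR-222 were not each other's closest partners, at r = 0.68 (rho = 0.77). miR-222 ranked 66th of 196 for miR-221, and miR-221 ranked 17th for miR-222.

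A pair of lists places the pair among miRNAs with related roles. Of 8 miRNAs known to respond to inflammatory signalling, 6 were tested, and in all 6 both TG values exceeded every WT value, as in 29.4% of all tested probe sets. No support for the list is drawn from this count, because miR-132 and miR-146b were detected on 1 of 4 WT arrays each and entered the test through TG. miR-21 and miR-155 were detected on 2 of 4 WT arrays, and miR-31 and miR-146a on all 4. Of the 6, miR-146b passed as higher (1.51 ± 0.29 SE, adjusted p = 0.0428 by limma), and none was lower. miR-21, at 1.01 ± 0.26 with an adjusted p of 0.0812, did not pass. miR-146a, detected on all arrays as miR-221 was, had 0.71 ± 0.29 and did not pass either. Of 13 miRNAs of growth and cell cycle control, all tested, miR-34a, a p53 target, passed as higher (1.56 ± 0.31 SE, adjusted p = 0.0428 by limma). None passed as lower. Over all 197 tested probe sets, 3.05% passed as higher and none as lower. Differences were positive in 4 of the 13, against 130 of all 197. Both TG values exceeded every WT value in 1 of the 13 and were under every WT value in 3 (miR-19b, miR-106b and miR-195), against 29.4% and 6.60% of all tested probe sets. miR-195, which restrains cell cycle entry, had -0.98 ± 0.23 with an adjusted p of 0.0656. The median of that list was -0.13. Both calls were lost without either TG array (adjusted p of 0.392 and 0.457 for each), without WT replicate 1 (0.110 for each) and without WT replicate 3 (0.0744 for miR-146b and 0.113 for miR-34a, all by limma).

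Markers of cell types in which the pair is known were read beside it, and their part in its difference was not tested. The endothelial miR-126-3p had 9.30 and 9.34 in TG and 10.14, 9.48, 10.69 and 11.19 in WT, a difference of -1.05 ± 0.44 (SE) that did not pass (adjusted p = 0.232 by limma), while miR-126-5p was detected on no array. Both TG values were under every WT value, as in 13 of the 197 probe sets (6.60%). Of the smooth muscle markers, miR-143 differed by -0.50 ± 0.38 and miR-145 by 0.58 ± 0.35, and the groups overlapped in both. The summed level of these 2, as log2, was 10.40 on both TG arrays and 9.66 to 10.62 in WT. For 6 leukocyte markers the summed level was 8.64 to 8.89 in TG and 7.93 to 8.41 in WT. Of these 6, 4 were tested and none passed. miR-342-3p, the brightest of them, differed by 1.14 ± 0.29 (SE), miR-342-5p by 0.61 ± 0.30, miR-150 by 0.22 ± 0.24 and miR-223 by -0.27 ± 0.25, the last detected on no TG array and 2 WT arrays. The blood cell markers miR-142-3p and miR-142-5p were detected on no array. For 8 epithelial markers, none past the threshold, it was 10.21 to 10.31 in TG and 9.65 to 10.00 in WT. The brightest, miR-200c, averaged 9.99 in TG and 9.45 in WT, while the means of the other 7 were under 6 in both groups. In miR-200c and miR-205 both TG values exceeded every WT value, as in 58 of the 197 probe sets (29.4%). Of these, miR-205 was detected on 2 TG arrays and no WT array. Negative differences were seen in miR-200a, miR-200b and miR-203 (-0.09, -0.03 and -0.31). For 3 erythroid markers, of which 2 were tested and none passed, it was 7.89 to 8.24 in TG and 6.79 to 8.50 in WT.

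**Figure D4:**
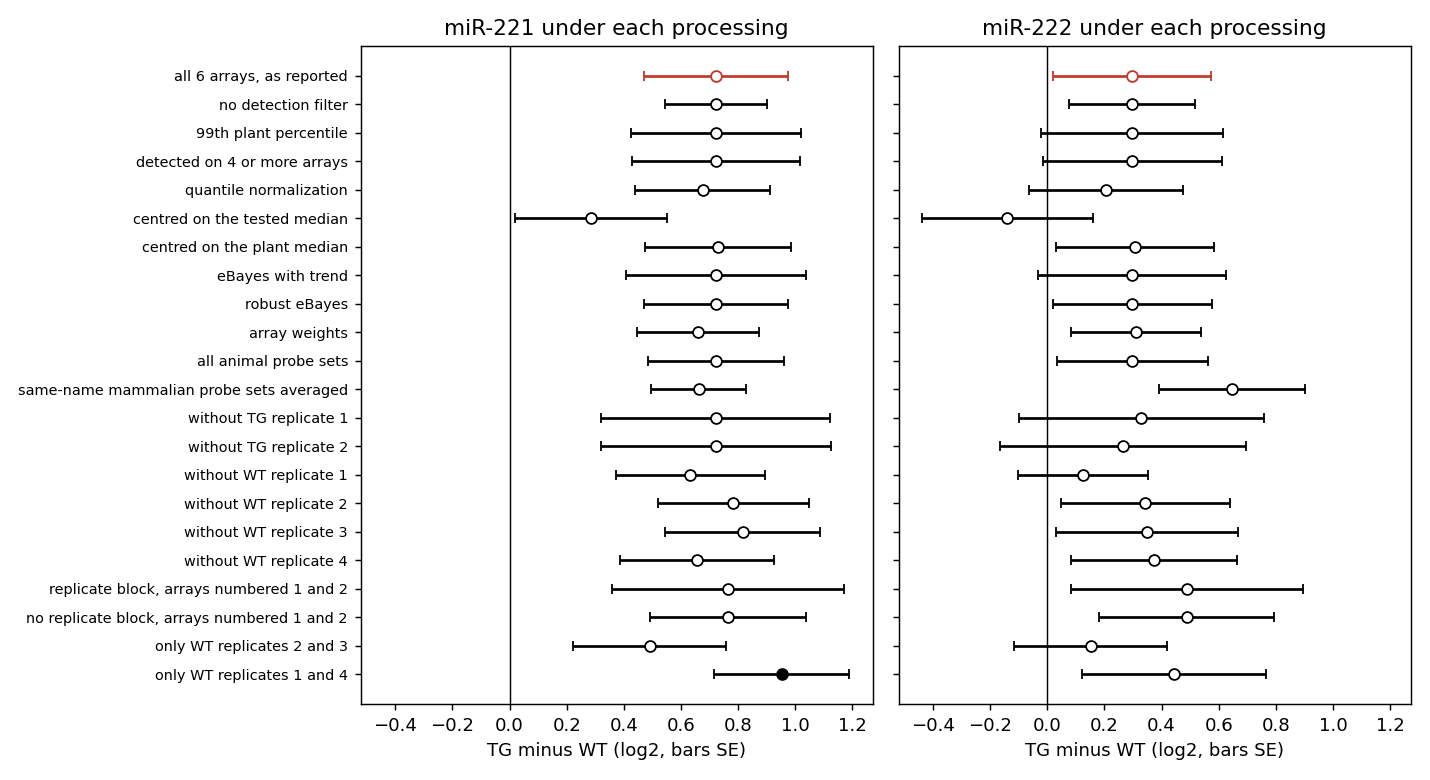
TG minus WT difference (log2, bars are SE) of the mouse probe sets of miR-221 (left) and miR-222 (right) under each processing, with the value as reported in red at the top. Filled points have an adjusted p under 0.05, open points do not. miR-221 runs from 0.28 to 0.95 and is filled only with WT replicates 1 and 4 alone, while miR-222 runs from -0.14 to 0.65. WT replicates 1 and 4 are the WT arrays where miR-221 is lowest, so keeping only them enlarges its difference.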

How the data were processed

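Lung RNA of 2 TG and 4 WT mice was taken up by TRIzol extraction, then labelled with biotin following Affymetrix, per the labels' protocols. The authors' deposited table gives 1 log2 value per probe set and array (3.37 to 13.36). The log base is inferred from this range. The sources used here do not give summarization, normalization or the array's annotation. No column was left unused (0), and no batch or scan date was given. The p-values rest on the spread between the mice sampled. For limma, part of that spread is taken from the other tested probe sets.

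Probe sets were classed by species prefix. Mouse probe sets above the 95th percentile of the 1631 plant probe sets on at least 2 arrays were tested two-sided and with no covariate (R 4.3.3, lmFit and eBayes of limma 3.58.1), with Benjamini-Hochberg adjustment over all 197. Fold changes are powers of 2 of differences of group means. Permutation tests enumerated all 15 splits. On simulated data of 197 probe sets for this comparison, 51.8% of log2 changes of 1 and 7% of changes of 0.5 were recovered, with 4.2% of calls false. The simulation drew independent noise for each value, had only increases and held no differences between whole arrays. Its rates therefore need not hold for these arrays. The number of arrays limits the precision.

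The members, the lists, the tests and the rule for named miRNAs (both members, the 3 most correlated probe sets of each, and the 2 of smallest p in each of the inflammation and growth lists) were chosen with earlier results of these data known. Sequences are RefSeq's, and 2 of 2 members matched. Alternatives covered the detection filter, scaling, variance model, averaging, single arrays and the replicate number. Those using WT replicates 2 and 3 or 1 and 4 alone, and all for the same-name medians, were chosen after seeing the data.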

Additional observations from a re-analysis of the deposited data

Results flagged for a closer look

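Among 33 sets of 4 WT values examined, 3 had 1 array standing far from the others by Dixon's criterion, which chance alone reaches in about 1 in 20 sets. The mouse probe set of miR-222 had 6.63 on WT replicate 1, with the other 3 WT arrays at 7.28 to 7.37. The cattle probe set of miR-222 had 5.37 on WT replicate 4, with the others at 7.15 to 7.30. miR-497, one of the miRNAs most like miR-222, had 3.94 on WT replicate 1, with the others at 5.90 to 6.18. It was picked for a likeness that rests on that array, so its flag is not independent of the flag of miR-222.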

How the results depend on the processing

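miR-221 stayed positive in all 21 alternatives (0.28 to 0.95). The lowest, with centring on the tested median, was 0.28 ± 0.27 (SE). miR-221 passed the threshold in 1, with only WT replicates 1 and 4 (0.95, adjusted p = 0.0453 by limma). WT replicates 1 and 4 held the lowest miR-221 values in WT (6.72 and 6.79), so keeping only them had to enlarge the difference. That choice was made after the values had been seen. With only WT replicates 2 and 3 the miR-221 difference was 0.49. Leaving out 1 array gave 0.63 to 0.82. miR-222 passed in none of 21 (adjusted p of 0.185 to 0.883), and it reversed to -0.14 with centring on the tested median. Leaving out 1 array gave 0.12 to 0.37, and only WT replicates 2 and 3 gave 0.15. miR-222 minus miR-221 stayed negative in 12 alternatives (-0.51 to -0.01), and leaving out 1 array gave -0.51 to -0.28. The median of other mammals' probe sets moved with centring on the tested median, to 0.15 for miR-221 and 0.29 for miR-222, and for miR-222 to 0.40 with only WT replicates 2 and 3. Without single arrays it was 0.52 to 0.67 for miR-221 and 0.50 to 0.87 for miR-222.

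The count of called mouse probe sets (6) was 1 without the detection filter, 2 with the 99th plant percentile, 1 with detection on 4 or more arrays, 0 with quantile normalization (33 at an unadjusted p under 0.05 by limma), 2 with centring on the tested median, 33 with array weights, 14 over all animal probe sets, 14 with averaging and 31 with only WT replicates 1 and 4. It was 0 to 27 without single arrays. It was 0 without either TG array and without replicate 1 or 3 of WT (14, 16, 27 and 32 at an unadjusted p under 0.05 by limma), and 27 without WT replicate 2. A lone TG array is assumed there to vary like the WT arrays.

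On the arrays numbered 1 and 2, the replicate block gave 12 calls and no block gave 0 (27 at an unadjusted p under 0.05 by limma). Differences there were 0.76 for miR-221 and 0.49 for miR-222 with the block and without it. Deviations of same-numbered arrays from their group means correlated at -0.21 and 0.07 across probe sets. With 2 TG arrays these deviations mirror each other in TG, so the correlations cannot decide whether same-numbered arrays shared a processing step. Where a cause was not named, the cause was not tested.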
